A study of Homo sapiens with 3 samples.

Results

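The HOX cluster genes were described in 3 RNA-seq libraries of 293T cells, an established line of human embryonic kidney cells. The genes were chosen by name, as HOXA, HOXB, HOXC or HOXD followed by a number from 1 to 13 and nothing else, which gave 39 of the 23284 gene names in the libraries. They were 11 HOXA, 10 HOXB, 9 HOXC and 9 HOXD genes. All 3 libraries came from cells that transiently expressed dCas9-VP64, in which a Cas9 unable to cut DNA is fused to the activator VP64. A mock sgRNA (mock), sgL1ASP #1 or sgL1ASP #3 was expressed beside it, and the 2 targeting sgRNAs direct dCas9-VP64 to the antisense promoter of the retrotransposon LINE-1. The comparison asks how the transcriptome differs when this promoter is activated. The plasmids were given by transfection, and the sources used here describe no selection of transfected cells before the RNA was taken. Each condition was measured in a single library, so differences have no check by replicates and no p-values are given.

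HOX genes encode homeodomain transcription factors that set the identity of body segments along the axis from head to tail. In each cluster the genes stand in the order of their numbers, and in embryos the low numbers at the 3′ end are used early and towards the head, whereas the high numbers at the 5′ end are used late and towards the tail. Genes with the same number in different clusters are paralogs, and genes of the HOX11 group are needed for kidney development. Polycomb complexes keep HOX genes silent, MLL complexes keep them active, and PBX, MEIS and PKNOX proteins bind DNA together with HOX proteins.

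Values are FPKM, the mapped fragments of a gene scaled to the length of its exons and to the size of the library. The FPKM of all genes summed to 619902.5 in mock, 661448.6 with sgL1ASP #1 and 673483.0 with sgL1ASP #3. A second scale was the median ratio of genes at FPKM 1 or more in every library to their geometric mean. Its factors were 0.9995 in mock, 0.9994 with sgL1ASP #1 and 1.0017 with sgL1ASP #3. By that scale a typical gene was level between the libraries as deposited. Small differences between libraries therefore depend on whether the sum or the typical gene is held equal. FPKM was above 0 for 16440 to 16693 genes per library, and the depth, estimated from the spacing of the lowest values, was 10400000 reads in mock, 10200000 with sgL1ASP #1 and 8600000 with sgL1ASP #3. Of the 7 markers fixed for this cell line, KRT18, NEFL, NEFM and the others were above FPKM 1 in every library, except PAX2 with 0.522 to 0.658. The blood marker PTPRC was listed at 0 in every library, the endothelial marker PECAM1 and the liver marker ALB were at 0.467 or less, and the fibroblast gene COL1A1 was at 1.99 to 2.55. Of the adhesion genes, CDH2 was at 16.4 to 18.3 and CDH1 at 0.149 or less.

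Reads of 75 bases had to tell paralogs apart. The homeobox, the part of the gene that encodes the DNA-binding domain, is the stretch in which paralogs are most alike. The stretch below encodes the DNA-recognition helix and the residues before it, and was found once in each of 39 of the 39 canonical transcripts. It is shown for group 13, the 5′ end of all 4 clusters. Sequences are from GRCh37, 5′ to 3′ on the strand of the gene, each within 1 exon, and capitals mark the bases that the 4 paralogs of the group do not all share.
HOXA13 (chr7:27237850-27237924, minus strand): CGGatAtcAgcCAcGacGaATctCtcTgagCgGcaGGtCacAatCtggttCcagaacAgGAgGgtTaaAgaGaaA
HOXB13 (chr17:46804191-46804265, minus strand): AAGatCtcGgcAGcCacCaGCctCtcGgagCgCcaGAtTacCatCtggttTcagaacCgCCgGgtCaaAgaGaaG
HOXC13 (chr12:54338921-54338995, plus strand): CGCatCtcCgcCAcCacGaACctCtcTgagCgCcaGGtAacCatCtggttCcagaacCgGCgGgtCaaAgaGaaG
HOXD13 (chr2:176959348-176959422, plus strand): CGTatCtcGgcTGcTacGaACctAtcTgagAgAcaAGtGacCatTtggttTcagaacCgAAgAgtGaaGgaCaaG

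Of the 75 bases, 29 differed among the 4 genes of group 13, and any pair differed by 12 to 22 bases. Other genes were closer in this stretch, down to 3 bases between HOXA6 and HOXB4 and between HOXB4 and HOXB5, and 5 bases between the paralogs HOXA6 and HOXC6 and between HOXB3 and HOXD3. Over the 82874 windows of 75 bases in the 39 canonical transcripts, 0 were the same in 2 HOX genes. Within 2 mismatches, 24 windows were shared, all of them between HOXA6 and HOXA7, which are neighbours and not paralogs of 1 group. The closest pair of windows is shown because it is the stretch in which a read could be placed on the other gene. Capitals mark the 2 bases that differ.
HOXA6 (chr7:27185433-27185507, minus strand): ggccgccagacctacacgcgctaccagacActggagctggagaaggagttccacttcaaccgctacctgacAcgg
HOXA7 (chr7:27194750-27194824, minus strand): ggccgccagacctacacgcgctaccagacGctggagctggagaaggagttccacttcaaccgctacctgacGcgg

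Exons of neighbouring HOX genes overlapped on the same strand in 5 pairs when every annotated transcript was counted, namely HOXB3 with HOXB4, HOXB3 with HOXB6, HOXC4 with HOXC6, HOXC6 with HOXC9, and HOXD10 with HOXD11. The overlaps ran from 44 to 484 bases, and none of them lay in the canonical transcripts of both genes. How such reads were divided is not given in the sources used here, so the levels of these 8 genes are less certain than those of the others.

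HOX transcripts were widespread in 293T cells. FPKM was at least 1 for 36 of the 39 genes in mock (92.3%), 36 with sgL1ASP #1 (92.3%) and 34 with sgL1ASP #3 (87.2%), against 54.8%, 54.8% and 54.7% of all genes. All 3 libraries had 34 HOX genes at FPKM 1 or more, and 16, 13 and 14 genes reached FPKM 10 in mock, sgL1ASP #1 and sgL1ASP #3. The 39 values summed to 449.614 FPKM in mock, 426.04 with sgL1ASP #1 and 433.285 with sgL1ASP #3, which was 0.0725%, 0.0644% and 0.0643% of each library's summed FPKM. HOXB9, the highest gene, stood above 90.8% of all genes in mock.

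**Figure D1:**
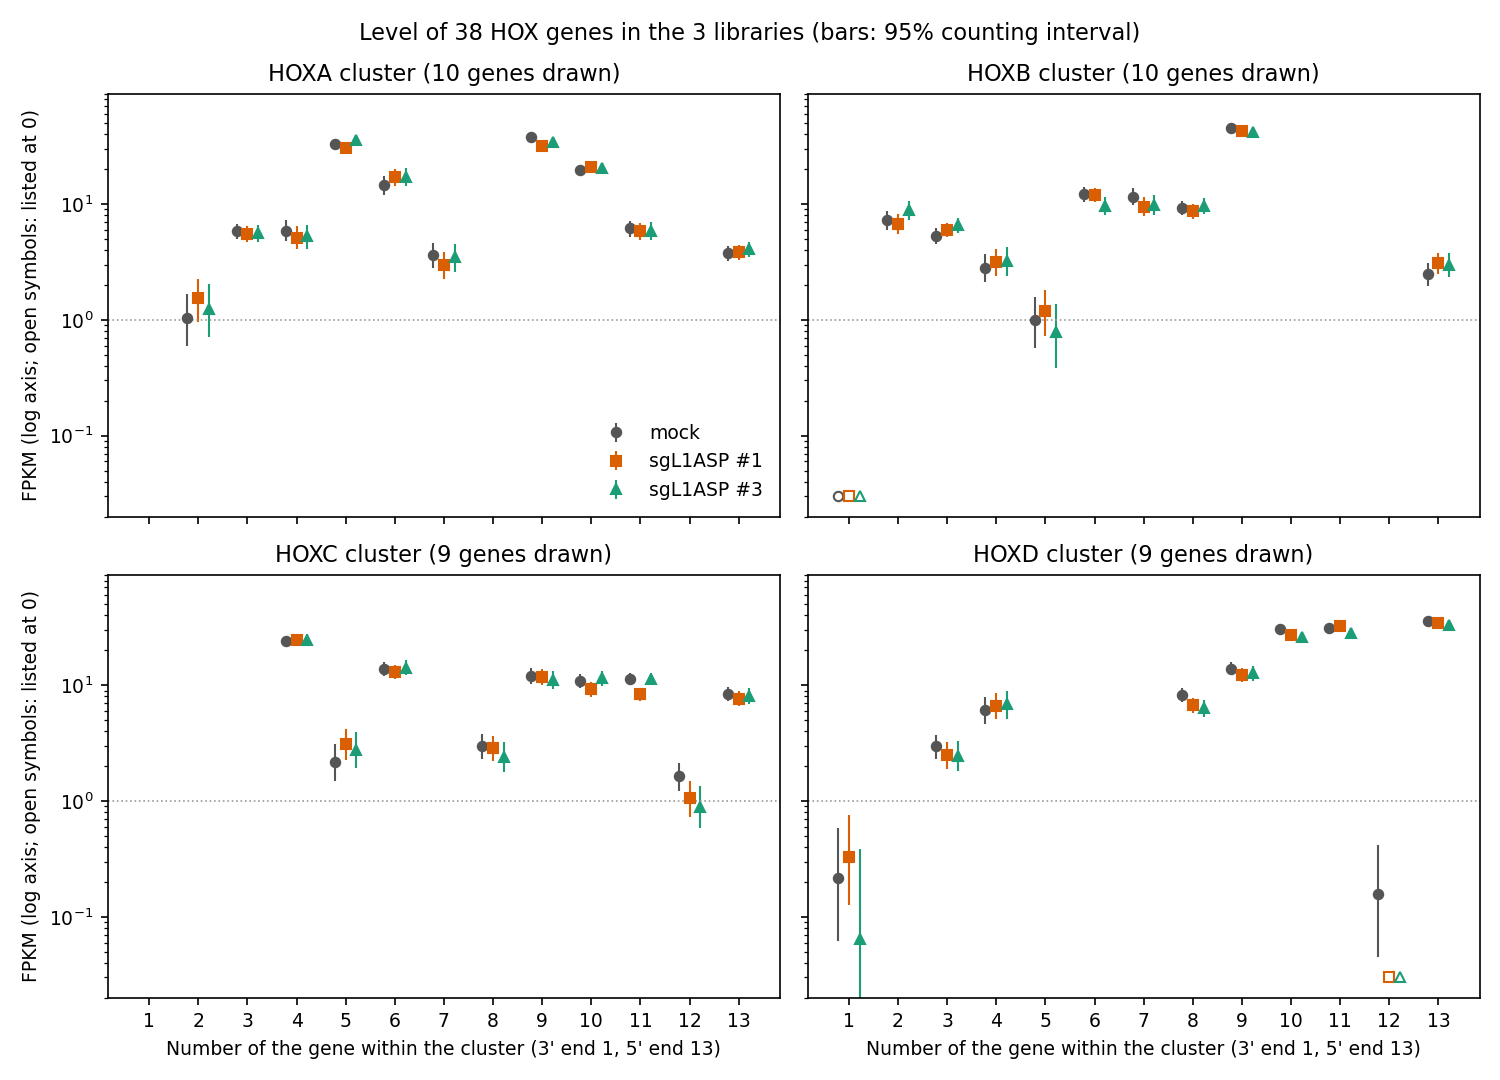
FPKM on a log axis of 38 HOX genes against their number within the cluster, 1 panel per cluster and 1 symbol per library. Bars are 95% counting intervals, open symbols mark genes listed at 0, and the dotted line is FPKM 1. HOXD levels climb with the number from HOXD1 to HOXD13 apart from HOXD12, which stands near 0, and, in sgL1ASP #3, HOXD8 (6.37), which is below HOXD4 (6.84). HOXB9 (41.9 to 44.98) stands alone at the top of its cluster, and HOXC4 (24.1 to 24.8) is the highest HOXC gene.

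The 4 clusters lie on 4 chromosomes. The HOXA genes (chromosome 7, minus strand) spanned 107.1 kb and summed to 135.651 FPKM in mock, 128.542 with sgL1ASP #1 and 137.012 with sgL1ASP #3. The HOXD genes (chr2:176957449-177055635, plus strand) spanned 98.2 kb and summed to 129.839, 122.622 and 115.798. The HOXB genes (chr17:46605888-46806112, minus strand) spanned 200.2 kb and summed to 96.836, 93.242 and 93.464. The HOXC genes (chr12:54332615-54449814, plus strand) spanned 117.2 kb and summed to 87.288, 81.634 and 87.011. By these sums, over unequal numbers of genes, the order was HOXA, HOXD, HOXB, HOXC in all 3 libraries, with HOXA holding 30.17% of HOX FPKM in mock and HOXC 19.41%. By the median gene the order differed, since HOXC was highest (10.87, 8.33 and 11.08 FPKM in mock, sgL1ASP #1 and sgL1ASP #3) and HOXA lowest (5.88, 5.53 and 5.59) in every library. In HOXB a single gene, HOXB9, held 46.4% of the cluster in mock, 46.0% with sgL1ASP #1 and 44.8% with sgL1ASP #3, and in the other clusters the highest gene held 24.7% to 30.0%.

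Over the 4 clusters together, expression leaned to the 5′ side. Genes numbered 9 to 13 (16 genes) held 60.4% of HOX FPKM in mock, 59.3% with sgL1ASP #1 and 58.2% with sgL1ASP #3. Genes numbered 4 to 8 (15 genes) held 33.6%, 34.4% and 35.1%, and those numbered 1 to 3 (8 genes) held 6.0%, 6.2% and 6.7%. The 5′ share differed by cluster. In mock it was 86.4% in HOXD (5 of 9 genes), 50.8% in HOXC (5 of 9), 49.8% in HOXA (4 of 11) and 49.0% in HOXB (2 of 10). The correlation of number with FPKM (Spearman's rho, a description over the genes of 1 cluster in 1 library, without a test) was 0.53, 0.53 and 0.52 in HOXD (n = 9), 0.45, 0.45 and 0.47 in HOXB (n = 10), 0.3, 0.38 and 0.26 in HOXA (n = 11), and -0.42, -0.47 and -0.42 in HOXC (n = 9), in the order mock, sgL1ASP #1 and sgL1ASP #3. HOXC has no genes numbered 1 to 3. HOXD12 decided the value in HOXD, since rho without it was 1.0, 1.0 and 0.98, and HOXB1 bore on that in HOXB, since rho over the genes above 0 was 0.25, 0.25 and 0.27.

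**Figure D2:**
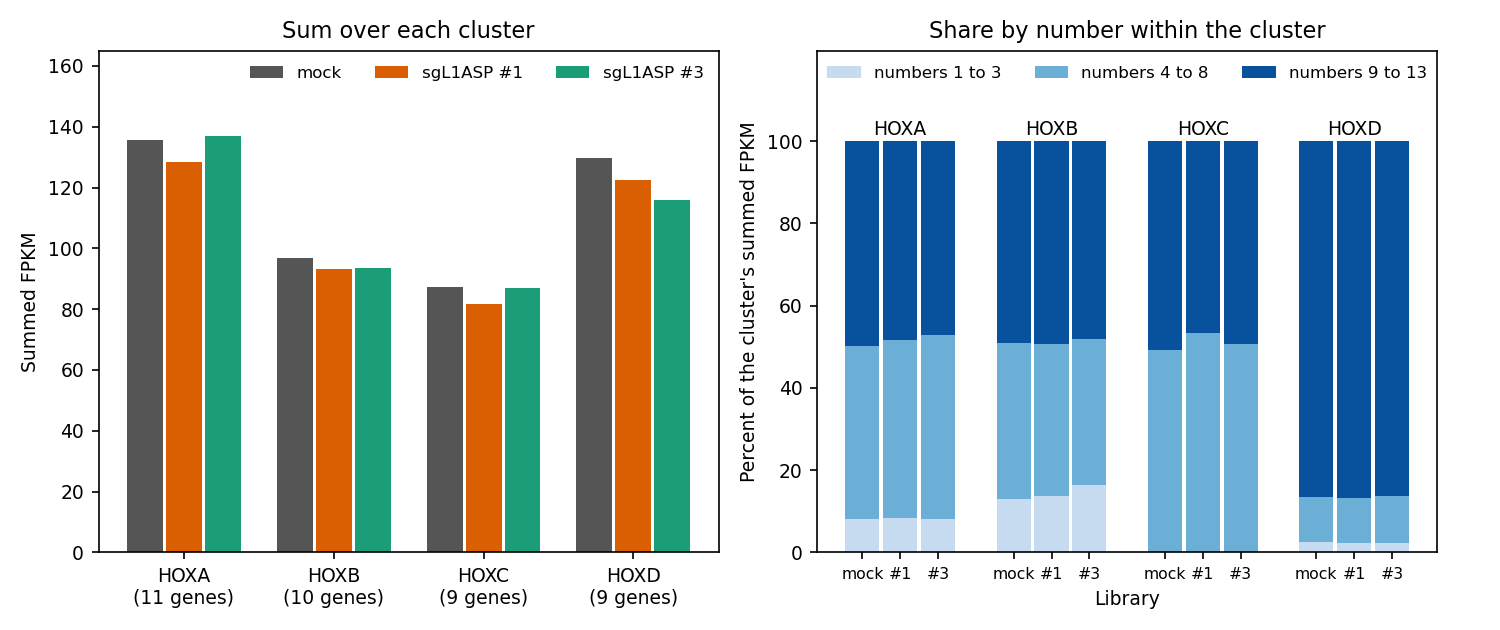
Left, summed FPKM of each cluster by library. Right, the percent of each cluster's summed FPKM in genes numbered 1 to 3, 4 to 8 and 9 to 13, with libraries named mock, #1 and #3. HOXA and HOXD have the highest sums in all 3 libraries, and genes numbered 9 to 13 hold 86.4% to 86.8% of HOXD FPKM.

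At the 3′ end, the genes of groups 1 to 3 were low or moderate. HOXB1, a hindbrain patterning gene, was listed at 0 in every library. In mock 3 reads would have given 0.158, so a level of about that size or less could have been missed at this depth. HOXD1 had 0.215, 0.327 and 0.0648, from an estimated 4, 6 and 1 reads. HOXB1 and HOXD1 were thus both below FPKM 1 in every library.

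HOXA2, which patterns the second pharyngeal arch, had FPKM of 1.03, 1.53 and 1.24 in mock, sgL1ASP #1 and sgL1ASP #3, from an estimated 17, 25 and 17 reads. HOXB2, its paralog, had 7.24, 6.78 and 8.87. In group 3, HOXA3 had 5.80, 5.53 and 5.59, HOXB3 had 5.30, 5.99 and 6.55, and HOXD3 had 2.96, 2.49 and 2.46. HOXA3 is needed for the thymus and parathyroid glands. The ranges of HOXA3 and HOXB3 overlapped, and HOXD3 was the lowest of the group in all 3 libraries.

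In group 4, HOXC4 was highest, with FPKM of 24.1, 24.5 and 24.8 in mock, sgL1ASP #1 and sgL1ASP #3. HOXD4 had 6.12, 6.65 and 6.84, HOXA4 had 5.88, 5.14 and 5.27, and HOXB4, known for its action in blood stem cells, had 2.82, 3.17 and 3.20. Group 5 was carried by HOXA5, a regulator of lung development, with 33.0, 30.2 and 35.6. HOXC5 had 2.19, 3.10 and 2.76, and HOXB5 had 1.003, 1.195 and 0.781 from an estimated 17, 20 and 11 reads. Within each of these groups the highest gene was at least 3 times as high as the next one in every library, and which cluster it came from differed between the groups.

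The 3 genes of group 6 lay closer together. HOXA6 had FPKM of 14.5, 17.1 and 17.2 in mock, sgL1ASP #1 and sgL1ASP #3, HOXC6 had 13.7, 13.05 and 14.2, and HOXB6 had 12.2, 11.96 and 9.70. In group 7, HOXB7 had 11.6, 9.49 and 9.89 and HOXA7 had 3.61, 2.97 and 3.47. In group 8, HOXB8 had 9.25, 8.65 and 9.57, HOXD8 had 8.31, 6.73 and 6.37, and HOXC8 had 2.97, 2.87 and 2.42. HOXD8 was higher in mock than in both libraries with a targeting sgRNA, and HOXA6 was lower in mock than in both. Each of these rests on the same mock library. For HOXA6 the 95% counting intervals of the ratio to mock held 1 (0.913 to 1.514 in sgL1ASP #1 and 0.909 to 1.54 in sgL1ASP #3).

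Group 9 was the highest of the 13 groups, with a summed FPKM of 108.85 in mock, 98.69 with sgL1ASP #1 and 99.87 with sgL1ASP #3, or 24.2%, 23.2% and 23.0% of HOX FPKM. HOXB9 had 44.98, 42.9 and 41.9. HOXA9, which acts in blood progenitors and is often raised in acute leukaemia, had 38.0, 31.7 and 34.2. HOXD9 had 13.8, 12.2 and 12.7, and HOXC9 had 11.99, 11.9 and 11.1. Each of these 4 genes was highest in mock, and the order HOXB9, HOXA9, HOXD9, HOXC9 was the same in every library.

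In group 10, HOXD10, known for its part in hindlimb motor neurons, had FPKM of 30.7, 27.4 and 26.2 in mock, sgL1ASP #1 and sgL1ASP #3. HOXA10, known for its part in the uterus, had 19.6, 20.9 and 20.3, and HOXC10 had 10.9, 9.25 and 11.5. In group 11, HOXD11 had 31.5, 32.5 and 28.4, HOXC11 had 11.4, 8.33 and 11.3, and HOXA11 had 6.15, 5.80 and 5.90. All 3 paralogs of the kidney group were thus above FPKM 5 in every library, with HOXD11 the highest. HOXC11 was lower in sgL1ASP #1 than in the other libraries.

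Group 12 was close to silent beside its neighbours. HOXC12 had FPKM of 1.63, 1.05 and 0.893 in mock, sgL1ASP #1 and sgL1ASP #3. HOXD12 had 0.157 in mock, from an estimated 4 reads, and was listed at 0 in the other libraries, where 3 reads would have given 0.148 in sgL1ASP #3. In group 13, HOXD13, a gene of digit and urogenital development, had 36.1, 34.4 and 32.8. HOXC13, a gene of hair and nail, had 8.44, 7.67 and 8.06. HOXA13 had 3.75, 3.85 and 4.07, and HOXB13, a gene of the prostate, had 2.49, 3.10 and 2.996. HOXD12 therefore lay between 2 genes, HOXD11 and HOXD13, that were both above FPKM 28 in every library.

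The order of the levels changed little between libraries. Spearman's rho over the 39 genes was 0.99 between sgL1ASP #1 and mock, 0.988 between sgL1ASP #3 and mock, and 0.991 between the libraries with a targeting sgRNA, as a description without a test. When the genes were ranked in mock, 5 of the 38 neighbouring pairs differed beyond their 95% counting intervals. In these, HOXB9 was above HOXA9, HOXD10 above HOXC4, HOXC4 above HOXA10, HOXA10 above HOXA6, and HOXB5 above HOXD1. The other neighbouring pairs, such as HOXA9 with HOXD13, did not differ beyond counting error.

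Against mock, HOX genes changed little with either sgRNA. The study used a 1.5-fold threshold for increases only, of sgL1ASP #1 over sgL1ASP #3 and of sgL1ASP #3 over mock. Here a change was an FPKM ratio above 1.5 or below the inverse of 1.5 in a pair of libraries. It was counted among genes with a mean FPKM of at least 1 over the 3 libraries. This filter kept 35 of the 39 HOX genes and 12830 genes in all, and left out HOXB1, HOXB5, HOXD1 and HOXD12. In sgL1ASP #1 against mock, 1 of 35 HOX genes (2.86%) was past 1.5-fold, against a background of 3.85% of all genes. In sgL1ASP #3 against mock it was again 1 of 35, against 4.08% of all genes, and between sgL1ASP #1 and sgL1ASP #3 it was 0 of 35, against 4.04% of all genes. The share of HOX genes was thus near the background in each comparison. In both comparisons with mock the gene was HOXC12, which was lower, and both use the same mock library.

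HOXC12 is a gene of the 5′ end of the HOXC cluster and had the lowest mean level of the 35 genes. Its FPKM of 1.63 in mock, 1.05 with sgL1ASP #1 and 0.893 with sgL1ASP #3 gave a ratio to mock of 0.645 and 0.547. The reads behind these values could not be fixed. The 3 values fit 11, 7 and 5 reads or any multiple of these numbers, and the annotated transcript length gives 52, 33 and 24 reads. With the smaller numbers the log2 ratio to mock was -0.63 (95% counting interval -2.24 to 0.86) in sgL1ASP #1 and -0.87 (-2.75 to 0.77) in sgL1ASP #3. With the larger numbers the ratio had an interval of 0.403 to 1.014 in sgL1ASP #1 and 0.327 to 0.917 in sgL1ASP #3, so that the difference for sgL1ASP #3 is past counting error only with the larger numbers.

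Counting intervals were then taken for each gene as a measure of what depth alone allows. An interval covers counting error only and leaves out the spread between cultures, which 1 library per condition cannot give. In sgL1ASP #1 against mock the interval left out a ratio of 1 for 3 of 35 HOX genes (8.57%), against 16.4% of the 11000 genes with a mean FPKM of at least 1 and a transcript length. These were HOXA9 (ratio 0.835, interval 0.749 to 0.931), HOXC11 (0.731, 0.622 to 0.861) and HOXD8 (0.81, 0.655 to 0.996). All 3 were lower in sgL1ASP #1, and HOXC11 showed the largest difference of them.

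In sgL1ASP #3 against mock the interval left out 1 for 3 of 35 genes, against 15.0% of all such genes. At 0.5 times the estimated depth the count was 0, and with the whole transcript length it was 6. They were HOXC12 with the limit given above, HOXD8 (ratio 0.766, interval 0.609 to 0.954) and HOXD10 (0.853, 0.742 to 0.978), and all were lower. HOXA9 in this comparison had a ratio of 0.899 (0.803 to 1.005). HOXC11 had a ratio of 0.995 (0.849 to 1.16), so its lower value was that of sgL1ASP #1.

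Between sgL1ASP #1 and sgL1ASP #3 the interval left out 1 for 3 of 35 genes, against 14.2% of all such genes. At 0.5 times the estimated depth the count was 1, and with the whole transcript length it was 5. They were HOXA5 (ratio of sgL1ASP #1 to sgL1ASP #3 0.848, interval 0.742 to 0.968), HOXC10 (0.804, 0.647 to 0.998) and HOXC11 (0.735, 0.622 to 0.874), each lower in sgL1ASP #1. In all 3 comparisons the HOX share was below the background share, which also depends on how many reads a gene has. The intervals of HOXC10 here and of HOXD8 in sgL1ASP #1 ended within 0.004 of 1.

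The direction of small differences was also counted. FPKM was lower than in mock for 24 of the 35 HOX genes in sgL1ASP #1 (68.6%), against 49.6% of all genes, and for 20 of 35 in sgL1ASP #3 (57.1%), against 49.4%. Between sgL1ASP #1 and sgL1ASP #3 it was lower in sgL1ASP #1 for 21 of 35 (60.0%), against 50.9%. The median log2 change on the scale of FPKM + 0.1 was -0.073 for HOX genes in sgL1ASP #1 against mock, -0.051 in sgL1ASP #3 against mock and -0.019 between sgL1ASP #1 and sgL1ASP #3, where the medians of all 12830 genes were 0.001, 0.001 and -0.003. The absolute log2 change had a median of 0.165, 0.149 and 0.08 for HOX genes and of 0.094, 0.095 and 0.093 for all genes. When every library was set to 1 common FPKM sum, all genes shifted down together, with 28 of 35 HOX genes (80.0%) below mock for sgL1ASP #1 against 74.9% of all genes, and 27 of 35 (77.1%) for sgL1ASP #3 against 78.9%. The HOX share below mock was then near that of all genes in both comparisons, but the HOX medians stayed lower. They were -0.166 in sgL1ASP #1 and -0.17 in sgL1ASP #3, where those of all genes were -0.092 and -0.117. With rescaling to the median ratio instead, the HOX medians were -0.073 in sgL1ASP #1 and -0.054 in sgL1ASP #3. Within 1.25-fold of mock lay 31 of 35 HOX genes with each sgRNA (88.6%), as did 88.9% of all genes in both comparisons.

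**Figure D3:**
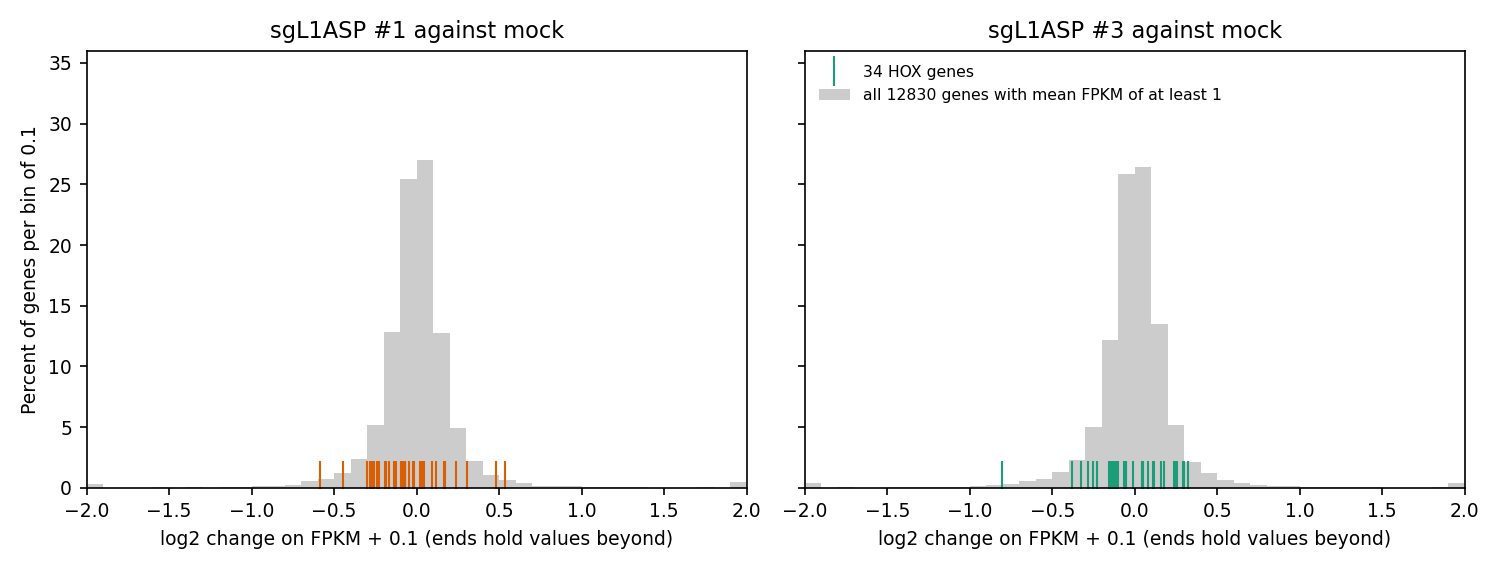
Percent of all 12830 genes with a mean FPKM of at least 1 in each bin of log2 change from mock, on the scale of FPKM + 0.1 (grey bars), with 1 tick for each of 34 HOX genes. The ticks lie between -0.59 and 0.53 in sgL1ASP #1 and between -0.8 and 0.32 in sgL1ASP #3, and HOXC12 is the lowest tick in both panels.

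By cluster, the median log2 change in sgL1ASP #1 and sgL1ASP #3 against mock was -0.166 and -0.149 for HOXD (7 genes), -0.084 and -0.047 for HOXA (11 genes), -0.073 and -0.008 for HOXC (9 genes), and -0.047 and 0.114 for HOXB (8 genes). The positive median of HOXB in sgL1ASP #3 turned to -0.003 after rescaling to the same FPKM sum. The median of all genes was then -0.117, so that of HOXB stayed above it. In HOXD, 5 of 7 genes were lower in sgL1ASP #1 and 6 of 7 in sgL1ASP #3, against 49.6% and 49.4% of all genes. The counts were 7 and 6 of 11 in HOXA, 7 and 5 of 9 in HOXC, and 5 and 3 of 8 in HOXB. HOXD thus did not stand out from HOXC by this count in sgL1ASP #1. The summed HOXD FPKM in sgL1ASP #3 was 0.892 times that in mock (95% counting interval 0.837 to 0.95), and in sgL1ASP #1 it was 0.944 times (0.89 to 1.002). The sums of HOXA, HOXB and HOXC were 0.935 to 1.01 times those in mock, and the intervals of all of these held 1. After rescaling to 1 common FPKM sum these ratios were 0.876 to 0.93, and all 6 intervals lay below 1. The HOXD ratios were then 0.885 (0.834 to 0.939) and 0.821 (0.77 to 0.874). A typical gene also fell by this rescaling, with a median log2 shift of -0.092 for sgL1ASP #1 and -0.117 for sgL1ASP #3. Rescaled intervals below 1 therefore do not by themselves set a cluster apart from other genes. They also hold no error of the scaling factor itself. The median-ratio factors (0.9995, 0.9994 and 1.0017 in mock, sgL1ASP #1 and sgL1ASP #3) would leave the cluster ratios about as deposited. Over the 39 genes the ratio to mock was 0.948 (0.918 to 0.978) in sgL1ASP #1 and 0.964 (0.932 to 0.996) in sgL1ASP #3, again for counting error alone. By position, the sum of genes numbered 9 to 13 was 0.931 and 0.929 times that in mock, that of genes 4 to 8 was 0.971 and 1.005 times, and that of genes 1 to 3 was 0.984 and 1.08 times.

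The genes left out by the filter were few and low. HOXB5 had a ratio to mock of 1.19 in sgL1ASP #1 and 0.779 in sgL1ASP #3, and HOXD1 had ratios of 1.52 and 0.301. The log2 ratio of HOXD1 from its 4, 6 and 1 reads had a 95% counting interval of -1.47 to 2.87 in sgL1ASP #1 and of -7.35 to 1.60 in sgL1ASP #3, both of which held 0. HOXD12 at 4 reads in mock and 0 in the others allowed a ratio of up to 1.53 in sgL1ASP #1 and 1.82 in sgL1ASP #3. No difference in these genes was detectable at this depth.

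Genes whose products act with HOX proteins or on HOX clusters were expressed. All 9 HOX cofactor genes of the PBX, MEIS and PKNOX families had a mean FPKM of at least 1, and 0 were past 1.5-fold in any comparison. Of all genes, 3.85% were past it in sgL1ASP #1 against mock, 4.08% in sgL1ASP #3 against mock and 4.04% between sgL1ASP #1 and sgL1ASP #3. PBX2 was the highest of them, with 35.5 in mock, 36.3 with sgL1ASP #1 and 36.8 with sgL1ASP #3. The median log2 change of the cofactors was -0.027 in sgL1ASP #1 and -0.178 in sgL1ASP #3 against mock, with PKNOX2 the lowest at -0.37 and -0.46. The median of all genes was 0.001 in both, so the cofactors were on the lower side in sgL1ASP #3.

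Of the Polycomb genes, all 11 of complex PRC2 and all 16 of PRC1 were expressed, as were all 14 genes of the MLL complexes and their partners. In any comparison 0 of them were past 1.5-fold, beside the same shares of 3.85%, 4.08% and 4.04% of all genes. The highest were RBBP7, a histone-binding subunit, with 198.3, 205.6 and 196.0, RING1, a ubiquitin ligase of PRC1, with 49.2, 46.2 and 50.4, and PSIP1, a chromatin tether of MLL, with 71.6, 74.6 and 71.6 in mock, sgL1ASP #1 and sgL1ASP #3. The median log2 change against mock was -0.061 and -0.036 for PRC2, -0.089 and -0.015 for PRC1, and 0.051 and -0.002 for the MLL group. EZH2, the methyltransferase of PRC2, had 43.6, 41.8 and 41.5.

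Of the 8 ParaHox and EVX genes, which are homeobox genes related to the HOX clusters, CDX2 alone was at FPKM 1 or more on average, with 13.1 in mock, 11.5 with sgL1ASP #1 and 12.8 with sgL1ASP #3. PDX1 had 0.925, 0.693 and 1.07. CDX1, CDX4, GSX1, GSX2, EVX1 and EVX2 were listed at 0 in every library. EVX1 and EVX2 are known to flank the 5′ ends of HOXA and HOXD, so HOXD13 at FPKM 32.8 or more stood next to a gene listed at 0.

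Another 17 genes lie inside the clusters or carry their names, and 9 of them had a mean FPKM of at least 1. HOTAIRM1, a noncoding RNA of the HOXA cluster, was the highest long RNA, with FPKM of 32.6 in mock, 23.6 with sgL1ASP #1 and 29.3 with sgL1ASP #3. HOTAIR, a noncoding RNA of the HOXC cluster known to bind PRC2, had 7.07, 7.80 and 7.005. HOTTIP, at the 5′ end of HOXA, had 0.241, 0 and 0.161.

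The antisense RNA HOXD-AS2 shares 642 exon bases with HOXD8 and 379 with HOXD3 on the opposite strand. Its FPKM was 6.10 in mock, 8.77 with sgL1ASP #1 and 2.60 with sgL1ASP #3, so that sgL1ASP #3 was past 1.5-fold lower than both other libraries. These values fit 31, 44 and 11 reads, the smallest whole numbers that do so. With them the log2 ratio was -1.23 (95% counting interval -2.37 to -0.2) in sgL1ASP #3 against mock, 0.52 (-0.17 to 1.24) in sgL1ASP #1 against mock, and 1.75 (0.78 to 2.85) between sgL1ASP #1 and sgL1ASP #3. HOXD8 itself was at 6.73 and 6.37 in the libraries with a targeting sgRNA, a ratio of 1.06 (0.837 to 1.34).

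HOXB-AS3, an antisense RNA that shares 425 exon bases with HOXB6, had FPKM of 17.1 in mock, 17.2 with sgL1ASP #1 and 10.1 with sgL1ASP #3, a ratio to mock of 1.003 and 0.59. HOXB6 on the other strand had a ratio of 0.983 (0.799 to 1.22) and 0.797 (0.628 to 1.005). HOXA-AS3 had ratios to mock of 1.29 and 1.42, HOXA-AS5 of 1.103 and 0.931, and HOXD-AS1 of 0.909 and 0.744. HOXB-AS5, which the annotation used names PRAC2 and lists as protein coding, had ratios to mock of 0.965 and 1.12. Of the 9 genes with a mean FPKM of at least 1, MIR615 alone was past 1.5-fold for sgL1ASP #1 against mock, where it was higher. For sgL1ASP #3 against mock HOXB-AS3 and HOXD-AS2 were past it and lower, and all 3 genes were higher with sgL1ASP #1 than with sgL1ASP #3, beside the shares of 3.85%, 4.08% and 4.04% of all genes. The libraries were made with a kit that keeps the strand. No replicate bears on either antisense RNA.

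MicroRNA genes inside the clusters gave signal in 1 case. MIR615 (chr12:54427734-54427829, plus strand) lies within HOXC5 and shares no exon base with it, and it had FPKM of 184.3 in sgL1ASP #1 and was listed at 0 in mock and sgL1ASP #3. Its hairpin is 96 bases long, shorter than the fragments of such a library, and a small number of reads then gives a high FPKM. Of the 1192 microRNA genes in the libraries, 31, 32 and 25 were above 0 in mock, sgL1ASP #1 and sgL1ASP #3, and 8, 14 and 7 of these in that library only. MIR10B, MIR196A1, MIR196A2, MIR196B and MIR3185 in the clusters, and MIR10A, which was not placed by the annotation used, were listed at 0 in every library. The mature sequences of the cluster microRNAs with signal or with a shared seed are shown, since the miR-196 copies in 3 clusters carry 1 seed. They are from RefSeq (GRCh38.p14), with the seed, bases 2 to 8, in capitals.
hsa-miR-615-3p: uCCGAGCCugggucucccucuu
hsa-miR-615-5p: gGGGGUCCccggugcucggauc
hsa-miR-196a-5p: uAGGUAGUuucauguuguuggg
hsa-miR-196b-5p: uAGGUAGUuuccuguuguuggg

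Mature microRNAs are too short for these libraries, so a value of 0 for a microRNA gene says nothing of its mature form. HOXC5, in which MIR615 lies, had a ratio to mock of 1.41 (0.886 to 2.32) in sgL1ASP #1 and 1.26 (0.766 to 2.14) in sgL1ASP #3. MIR615 also lies within the annotated span of HOXC4 on the same strand. HOXC4 had ratios of 1.02 (0.878 to 1.175) and 1.03 (0.885 to 1.199).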

How the data were processed

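The authors prepared stranded mRNA libraries from total RNA, sequenced single reads of 75 bases, aligned these to hg19 with TopHat2 2.0.13, Bowtie2 2.2.3 and SAMtools 0.1.19, and deposited 1 FPKM value per gene and library from Cufflinks 2.2.1. The gene annotation and the scaling between libraries are not given in the sources used here. FPKM were used as deposited.

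The groups were taken from the labels. Log2 changes used a pseudocount of 0.1, and fold counts none, so that a 0 in 1 library counts as past the threshold, except in the alternative with no filter, which leaves out genes at 0 in either library. GENCODE 44 lifted to GRCh37 (hg19) gave coordinates and transcript lengths, and 19500 gene names (83.7%) were placed on it. Depth was estimated from 1745 genes with a single transcript of at least 1000 bases, taking a fragment of 200 bases from the length, and 155 values lay at the peak that gives it. Between libraries, the value of 1 read relative to mock was 1.013 in sgL1ASP #1 (352 of 1476 low genes) and 1.2033 in sgL1ASP #3 (333 of 1404). Whole reads of low genes are the smallest numbers up to 50 that match these ratios within 0.01. Counting intervals are exact (Clopper-Pearson) at 95% for 1 gene and a normal approximation on the log scale for sums, and reads without molecular identifiers are not independent molecules. The interval and the search for whole reads were tested on simulated data.

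Counts and sums cover all 39 HOX genes, of which 1 is not reported here on its own. Genes of other lists were named when past 1.5-fold with a mean FPKM of at least 1 or highest in their list, and EZH2, PKNOX2, PDX1, HOTAIR, HOTAIRM1 and HOTTIP after their values were seen. The genes, lists and rules were chosen with earlier results of these data known. The computations used SciPy 1.17.1, NumPy 2.4.6 and pandas 2.3.3 in Python 3.11.15, and the plots matplotlib 3.10.9.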

Additional observations from a re-analysis of the deposited data

Results flagged for a closer look

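HOXD1 had a ratio to mock of 1.52 in sgL1ASP #1 and of 0.301 in sgL1ASP #3, on either side of mock, and both 95% counting intervals of the log2 ratio held 0 (-1.47 to 2.87 and -7.35 to 1.60). The difference was not tested, with a single library for each, and the values rest on an estimated 4, 6 and 1 reads for mock, sgL1ASP #1 and sgL1ASP #3.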

How the results depend on the processing

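No paired analysis was possible because only 1 library was made for each condition, and for the same reason no replicate could be left out. A count was taken as moved beyond 1.5 times, a cluster sum or ratio beyond 1.5-fold, and a median or a correlation beyond 0.1. Of the alternatives for results that answer a comparison, 80 stayed within these bounds and 34 moved. The count of HOX genes past 1.5-fold, 1 in each comparison with mock, became 0 at 2-fold, with a pseudocount of 1 and with FPKM of at least 1 required in every library, and 2 with no filter on low values, where HOXD1 joined HOXC12 and HOXD12, at 0 in both libraries with a targeting sgRNA, was left out. Between sgL1ASP #1 and sgL1ASP #3 the count of 0 became 2 with no filter and 1 after rescaling to a sum of 1000000. That rescaling shifted all genes in the median by -0.092 in sgL1ASP #1 and -0.117 in sgL1ASP #3, and the median of HOX genes in sgL1ASP #3 against mock from -0.051 to -0.17. It gave cluster sums of 218.827, 156.212, 140.809 and 209.451 in mock and 194.333, 140.966, 123.418 and 185.384 in sgL1ASP #1 for HOXA, HOXB, HOXC and HOXD. Without HOXB9 the HOXB sum was 51.856, 50.344 and 51.56 in mock, sgL1ASP #1 and sgL1ASP #3. Over genes above 0, rho of number and FPKM was 0.25, 0.25 and 0.27 in HOXB and, in sgL1ASP #1 and sgL1ASP #3, 1.0 and 0.98 in HOXD, and without HOXD12 it was 1.0, 1.0 and 0.98. The counts of HOX genes with an interval without 1, 3 in each comparison, became 6 in sgL1ASP #3 against mock and 5 between sgL1ASP #1 and sgL1ASP #3 with the whole transcript length, and 0 and 1 at 0.5 times the estimated depth. The settings without HOXD12, the whole length, the lower depth and the rescaled or trimmed cluster ratios were chosen after seeing the data. The direction of the 9 changes whose intervals left out 1 was the same with pseudocounts of 0.01 and 1 and under both rescalings. These settings could hardly have turned it. A pseudocount added to both values cannot change a direction, and the median-ratio factors were close to 1. The sum rescaling lowers both libraries with a targeting sgRNA against mock, where these changes were already lower. Its factors for sgL1ASP #1 and sgL1ASP #3 were close to each other (1.5118 and 1.4848). Depth limits HOXD1, HOXD12, HOXB5, HOXA2 and HOXC12 most.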
